A study of Mus musculus with 27 samples.

Results

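The genes described here encode the proteins of the cytosolic ribosome. They were taken from the count table by name: protein-coding genes with a mouse symbol that starts with Rpl or Rps and a digit, other than the Rps6k kinases, together with Rpsa, Rplp0, Rplp1 and Rplp2. This name rule gave 92 genes. A count above 10 in 3 or more of the 27 libraries was asked of each gene, which 86 of the 92 met. These 86 are the members, out of 16330 genes that passed. The members comprise 77 ribosomal protein genes proper (46 of the large and 31 of the small subunit), 5 paralogues (Rps27l, Rpl22l1, Rpl7l1, Rpl36al and Rps27rt) and 4 protein-coding genes with pseudogene-type names (Rpl10-ps3, Rpl36a-ps1, Rpl9-ps6 and Rpl9-ps1). The 6 genes below the filter were Rpl10l, Rpl36-ps4, Rpl39l, Rpl3l, Rps12-ps3 and Rps19bp1, of which Rps12-ps3 had 76 counts over all libraries and the others at most 6. Fau, which encodes a ribosomal protein fused to a ubiquitin-like sequence, does not carry an Rpl or Rps name and is given only beside the members.

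RNA was sequenced from C57Bl6/J mouse embryos at embryonic day 14. The mutants (Smarcc1-DCT-cKO) carried Baf155 loxP/loxP, Dct-Cre and the Z/EG reporter, and the controls were littermates without Dct-Cre. Baf155 is another name for Smarcc1, which holds together the BAF complexes that remodel chromatin. Dct-Cre acts in the retinal pigment epithelium and the optic stalk lineages. From each of 4 control and 5 mutant embryos, laser capture gave a dorsal and a ventral piece of the optic stalk and a piece of the region through which the retinal ganglion cell axons run, so that each embryo contributed 3 libraries. The cell bodies of these axons lie in the retina, outside the captured tissue. Batch A held 1 control and 3 mutant embryos, and batch B held 3 control and 2 mutant embryos.

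A ribosome is built from ribosomal RNA and one copy of most of these proteins, so their genes are usually expressed at coordinated and high levels in all cells. Their mRNAs belong to the terminal oligopyrimidine (TOP) class, which starts with a C followed by a run of C and T and whose translation is controlled through mTOR. Ribosomal protein mRNAs are also known among the mRNAs that neurons carry into their axons.

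Libraries held 10.9 to 34.0 M counts, at which 3 counts, the limit that a count of 0 allows, equal 0.0883 to 0.275 CPM (counts per M counts of the library). The reads carry no molecular identifiers, so this limit covers counting error only. Axon libraries had fewer genes with a count (9225 to 14118) than stalk libraries (10881 to 16810), and a larger share of counts from the mitochondrial genome (7.49 to 15.4% against 3.72 to 7.63%). Of the 15 axon and neuron markers, 14 passed the filter, and their summed level was 4078 to 8446 CPM in the axon libraries against 414 to 2953 CPM in the stalk libraries, without overlap. Kif1a, Nefm and Map1b carried most of it. The other way, 3 of the 14 were higher in the stalk in both genotypes, none called. The neuronal tubulin Tubb3 averaged 100.1 CPM in control and 67.1 CPM in mutant dorsal libraries, against 13.5 and 0.0266 CPM in axon libraries. The RNA-binding protein Elavl4 averaged 30.6 and 72.7 CPM against 0.0114 and 0 CPM. The transcription factor Isl1 averaged 31.6 and 11.0 CPM against 0.791 and 0.0817 CPM. Their ventral means, in the same order, were 98.4, 35.8 and 36.4 CPM in controls and 21.2, 8.61 and 0.729 CPM in mutants. Pou4f2, a ganglion cell transcription factor, was at 0 CPM in the axon libraries. Smarcc1 itself was lower in every mutant than in every control ventral library (14.7 to 64.4 against 75.7 to 197.9 CPM) and axon library (1.86 to 44.9 against 50.1 to 242.0 CPM), while in the dorsal stalk 3 of 5 mutants were below all controls. The library of control dorsal replicate 3 stood apart, with 24360 CPM of erythroid and 11377 CPM of mesenchyme markers and 39.5 CPM of pigment markers.

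Start-site sequences were searched for runs of C and T of the kind that opens TOP mRNAs. Windows of 30 bases (15 before and 15 from the annotated transcription start) were read on the sense strand from RefSeq's promoters of GRCm38.p6, which list 62 of the 86 members. A run of at least 6 bases that begins with C and holds C and T alone was found in 36 of these 62 members (58.1%). It was found in 27.4% of 10911 other genes that passed the filter and in 22.5% of all windows in the table. The run could lie anywhere in the window, also wholly before the start as in Rps27l below, and at any listed start of a gene. These rates are therefore not rates of TOP mRNAs. Shown are 6 members called between stalk and axon region in the mutant, described further on, and the paralogues Rps27l and Rpl22l1, which were not called, with the run in capitals and windows without a run in lower case throughout.
Rps27 (chr3:90213634-90213663, minus strand): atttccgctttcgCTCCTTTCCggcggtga
Rpl35 (chr2:39005117-39005146, minus strand): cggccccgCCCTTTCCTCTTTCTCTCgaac
Rplp2 (chr7:141447636-141447665, plus strand): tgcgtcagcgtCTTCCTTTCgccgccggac
Rps12 (chr10:23787195-23787224, minus strand): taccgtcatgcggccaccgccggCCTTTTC
Rpl41 (chr10:128549154-128549183, minus strand): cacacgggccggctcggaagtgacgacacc
Rps15 (chr10:80292416-80292445, plus strand): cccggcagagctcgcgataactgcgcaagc
Rps27l (chr9:66946071-66946100, plus strand): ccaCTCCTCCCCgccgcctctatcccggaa
Rpl22l1 (chr3:28805493-28805522, plus strand): gtgcggcgcaagcccgttCTCTTCCCacgg
The longest of the runs shown is that of Rpl35, at 18 bases. The windows follow annotated starts, which can lie some bases from the start used in these cells, so a window without a run says only that the run is not in those 30 bases.

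The members took a larger share of counts in the axon region than in the stalk in each of the 9 embryos. In controls their share was 4.81, 3.66, 5.07 and 3.41% in dorsal libraries 1 to 4, 4.99, 4.17, 5.59 and 4.19% in ventral libraries, and 9.25, 5.60, 6.25 and 5.91% in axon libraries. The lowest control axon library was therefore only just above the highest control stalk library, and axon replicate 1 was far above the other axon libraries. In mutants 1 to 5 the dorsal share was 4.49, 5.48, 4.68, 5.03 and 4.84%, the ventral share 4.60, 5.60, 4.60, 4.62 and 4.46%, and the axon share 6.38, 6.80, 7.0, 6.38 and 6.65%. No mutant axon library overlapped the mutant stalk libraries. Within an embryo, the axon share divided by the mean of its dorsal and ventral shares was 1.51 ± 0.297 (SD, n = 4) in controls and 1.38 ± 0.107 (SD, n = 5) in mutants, and it ranged from 1.17 to 1.89 over all embryos. With the counts of the mitochondrial genome left out of the total, the ratio was 1.60 ± 0.280 in controls and 1.45 ± 0.138 in mutants. The same ratio for the 78 mitochondrial ribosomal protein genes, whose products build the separate ribosome inside mitochondria, was 1.06 ± 0.121 in controls and 0.955 ± 0.0762 in mutants. The balance of the subunits moved little: the summed small-subunit level divided by the summed large-subunit level was 0.849 ± 0.0281 (SD, n = 18) in stalk and 0.868 ± 0.0472 (SD, n = 9) in axon libraries. In such bulk samples, fewer cells of a type and less RNA per cell cannot be told apart.

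**Figure D1:**
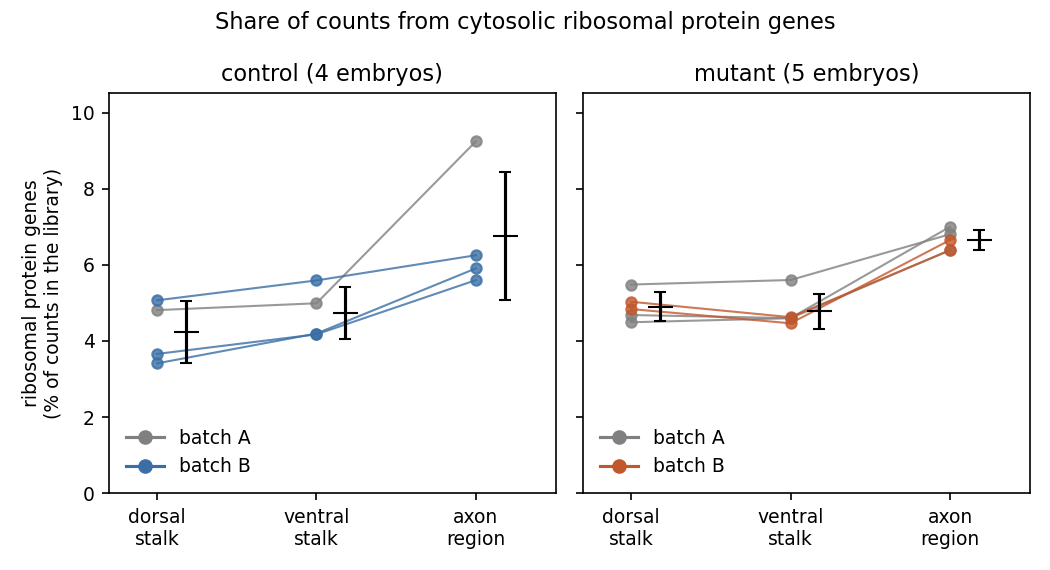
Share of each library's counts (%) taken by the 86 members, by piece, for control and mutant embryos; lines join the 3 libraries of an embryo, grey marks batch A and colour batch B, and black bars give the mean and SD of each group. The axon value is the highest of the 3 in all 9 embryos, and control axon replicate 1 (9.25%) lies above the other axon libraries (5.60 to 7.0%).

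In the control embryos, members were lower in the stalk (the mean of its dorsal and ventral pieces) than in the axon region almost throughout, but few passed the test. A gene was called when edgeR's quasi-likelihood test gave it a log2 fold change beyond 0.58 in either direction and a p below 0.05 after Benjamini-Hochberg adjustment. Of the members, 3 of 86 were called, all lower in the stalk, against 0.117% of the 16231 genes tested (0.105% called lower). A negative log2 fold change was found for 84 of 86 members, against 43.0% of all genes. Before adjustment 67 members had p below 0.05, against 11% of all genes. Among members the median log2 fold change was -0.73 (1.66-fold higher in the axon region), and among all genes tested it was 0.22, a distance of -0.95. Among 2005 other genes above 100 CPM, a set nearer to most members in level, the median was -0.14, so the distance to them was smaller. Rps19 (ENSMUSG00000040952.16, chr7:24884371-24889806 in mm10) and Rpl32 (ENSMUSG00000057841.5, chr6:115805505-115808747) were among the called members. The exceptions to the common direction were Rps10 and Rpl9-ps1, both at or near 0 CPM in most libraries, for which no fold is given.

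The level of Rps19, a small-subunit protein needed for maturation of the small subunit and mutated in Diamond-Blackfan anaemia, was 2634, 1420, 1803 and 1347 CPM in control axon libraries 1 to 4. It lay between 670 and 1017 CPM (median 858) in the 8 control stalk libraries. The groups did not overlap, and the log2 fold change was -1.28 ± 0.21 (SE; edgeR adjusted p = 0.0131). Rpl32, a large-subunit protein, had 1697, 1032, 955 and 1240 CPM in the control axon libraries. In the stalk it ranged from 516 to 852 CPM (median 649), again without overlap, with a log2 fold change of -1.10 ± 0.18 (adjusted p = 0.0199). Rpl32 shares 20.04% of its exonic bases with Cand2 and Snora7a. The strand setting of the counting is not stated, so reads in the shared bases could belong to either gene.

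The control calls depended on the libraries and on the model. Without control axon replicate 1 no member was called by edgeR (0.0802% of all genes were), 33 had an unadjusted p under 0.05 (6.78% of all genes), and the median was -0.55. With the replicate number (the embryo) as a block, 15 members were called, against 0.253% of all genes. Within batch B alone (3 control embryos) the median was -0.58, no member was called (0.0621% of all genes were) and 36 had an unadjusted p under 0.05 (5.93% of all genes), and batch A holds 1 control embryo, too few for a value of its own.

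In the mutant embryos the same direction was seen with more calls. Of the members, 32 of 86 were called, all lower in the stalk, against 1.24% of the 16235 genes tested (0.715% called lower). A negative log2 fold change was found for 81 of 86 members, against 39.4% of all genes, and 63 had p below 0.05 before adjustment, against 22.4% of all genes. The median was -0.58 (1.50-fold higher in the axon region), against 0.38 for all genes, a distance of -0.96. It was -0.05 among the 2005 other genes above 100 CPM, so the distance to them was smaller. The called members comprised 18 of 46 large-subunit and 14 of 31 small-subunit genes, and none of the paralogues or of the genes with pseudogene-type names. All 3 members called in controls were among the 32. Within batch A (3 mutant embryos) the median was -0.58 with 5 members called (0.267% of all genes were) and 53 at an unadjusted p under 0.05 (11.5% of all genes). Within batch B (2 mutant embryos) it was -0.68 with 0 called by edgeR (0.0129% of all genes were) and 51 at an unadjusted p under 0.05 (8.58% of all genes).

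**Figure D2:**
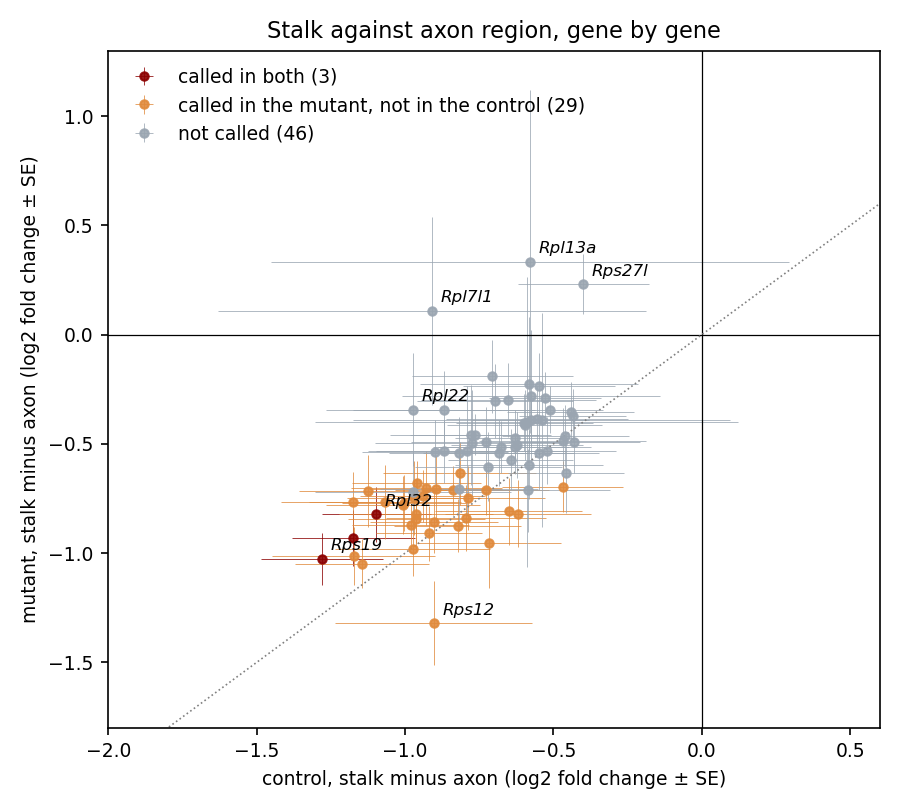
Log2 fold change, stalk minus axon region, in control (x axis) and mutant embryos (y axis) for the 78 members with a mean over 20 CPM, with bars of 1 SE and colours for the call; the dotted line marks equal values. All but Rps27l, Rpl7l1 and Rpl13a lie below 0 in both, with the called members at the lower left.

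The smallest p in the mutants belonged to Rpl41 (ENSMUSG00000093674.7, chr10:128548114-128549305 in mm10) and Rps29 (ENSMUSG00000034892.8, chr12:69157722-69159186), which encode very short proteins of the large and small subunit. Rpl41 had 1914, 2142, 2180, 1863 and 1997 CPM in mutant axon libraries 1 to 5. In the 10 mutant stalk libraries it ranged from 1000 to 1559 CPM (median 1229), below every axon library. The log2 fold change was -0.87 ± 0.09 (edgeR adjusted p = 2.25e-05), and in controls it was -0.98 ± 0.20 (adjusted p = 0.0867). Rps29, a small-subunit protein that is also among the Diamond-Blackfan genes, had 1283, 1423, 1456, 1710 and 1555 CPM in the axon libraries. The mutant stalk libraries held 666 to 969 CPM (median 774), without overlap. Its log2 fold change was -1.05 ± 0.11 (adjusted p = 2.71e-05) in mutants and -1.15 ± 0.23 (adjusted p = 0.0779) in controls.

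Rps19 followed, with 1575, 1538, 1774, 1719 and 1392 CPM in the mutant axon and 743 to 1133 CPM (median 824) in the mutant stalk libraries. The groups were separate, with a log2 fold change of -1.03 ± 0.12 (edgeR adjusted p = 6.43e-05). The others of the 6 smallest p were Rps27 (-0.98 ± 0.12), Rps15 (-0.84 ± 0.11) and Rpl35 (-1.01 ± 0.13). Rpl35 shares 66.2% of its exonic bases with Arpc5l and Wdr38. The most negative value of a called member was that of Rps12, a small-subunit protein, whose axon libraries had 447, 293, 438, 489 and 348 CPM. Its stalk libraries ranged from 152 to 237 CPM (median 170), and the log2 fold change was -1.32 ± 0.19 (adjusted p = 0.000618).

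The P-stalk of the large ribosomal subunit, a lever of acidic proteins where translation factors dock, is made of Rplp0, Rplp1 and Rplp2. Rplp0 had 2632, 3012, 2383, 1842 and 2092 CPM in mutant axon and 868 to 2152 CPM (median 1704) in mutant stalk libraries. These ranges overlapped, and the log2 fold change of -0.75 ± 0.17 was called (edgeR adjusted p = 0.0310). Rplp1 (-0.78 ± 0.13, adjusted p = 0.00270), Rplp2 (-0.76 ± 0.17, adjusted p = 0.0262) and Rpsa (-0.75 ± 0.15, adjusted p = 0.00967), a small-subunit protein also known as the laminin receptor, were called too. In controls the values of these genes were -0.97 ± 0.23, -1.01 ± 0.26, -1.07 ± 0.26 and -0.79 ± 0.26 in the same order, with adjusted p of 0.203, 0.309, 0.229 and 0.438.

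**Figure D3:**
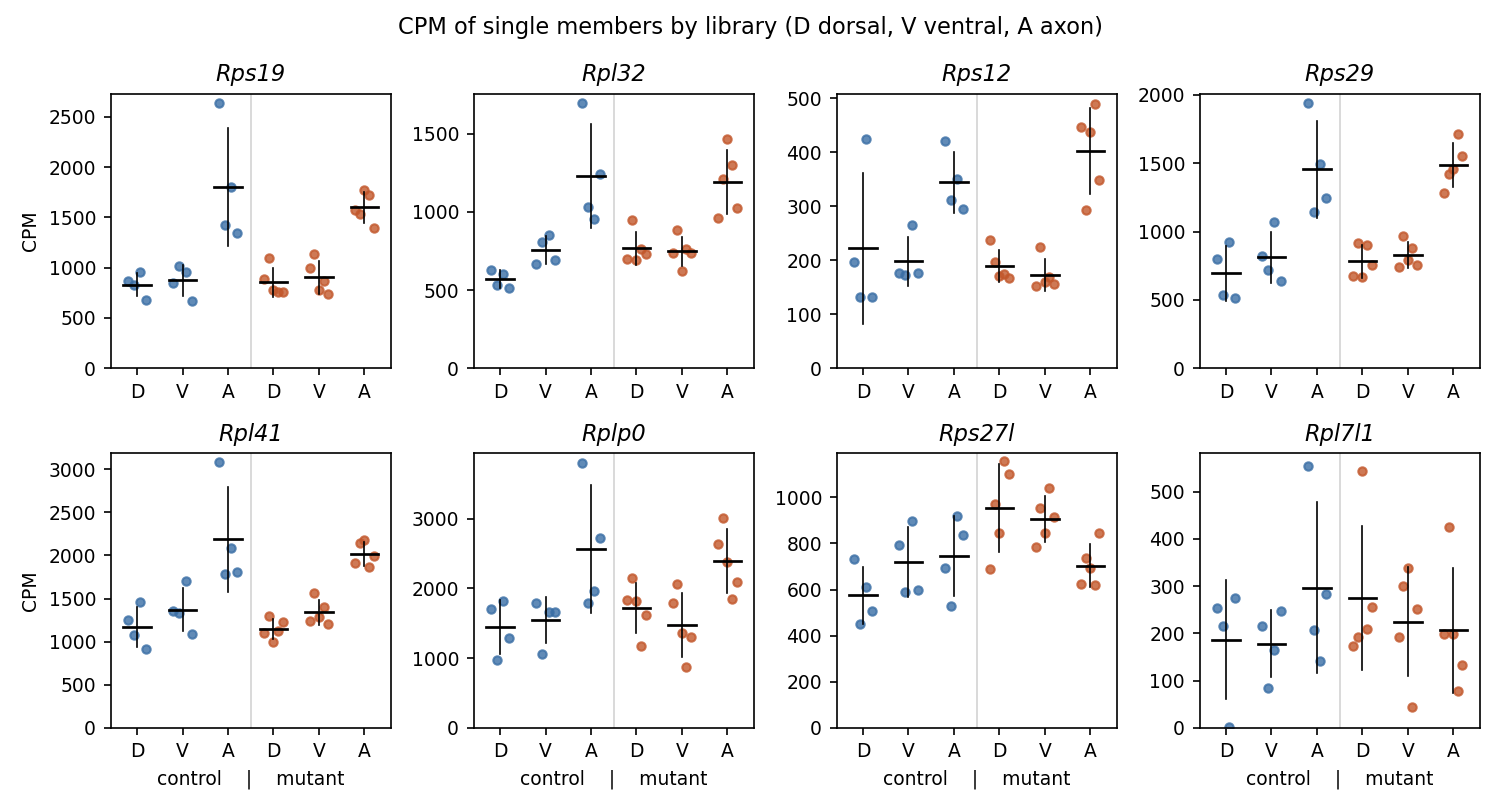
CPM of 8 members in every library, grouped as dorsal (D), ventral (V) and axon (A) in controls (blue) and mutants (orange), with bars for the mean and SD of each group. In Rps19 and Rps29 every axon library lies above every stalk library of its genotype, whereas Rps27l and Rpl7l1 show no such step.

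In CPM, without any fitted scaling, every axon library lay above every stalk library of its genotype for 15 members in controls (0.465% of all genes) and for 24 in mutants (0.570%), and for 12 in both genotypes (0.196%). For 28 members the axon library was above both stalk libraries of the same embryo in 9 of 9 embryos, which held for 0.527% of all genes. In a single embryo this was so for 50 to 82 members of 86, against 20.6 to 25.1% of all genes. The lowest number, 50, was from control embryo 3, and the highest, 82, from control embryo 4.

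Each stalk piece was also set against the axon region alone. The comparisons share the axon libraries as a reference, so their values are only set side by side. In controls, dorsal minus axon had a median of -0.81 among members with 1 call (Rpl32), against 0.105% of all genes called, and ventral minus axon had -0.67 with 0 calls by edgeR, against 0.0493% of all genes called. In the latter 47 members had an unadjusted p under 0.05, against 10.1% of all genes. In mutants the medians were -0.57 with 24 calls (0.930% of all genes) and -0.64 with 25 calls (0.838% of all genes).

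Members further toward the axon region in controls tended to be so in mutants. Across 75 ribosomal protein genes proper with over 20 CPM, the control and mutant log2 fold changes had a Spearman correlation of 0.68 and a Pearson correlation of 0.63. The genotypes share no libraries, but the genes are not independent and share depth, length and base composition effects. The difference of the stalk minus axon contrast between genotypes was tested over all 27 libraries with batch as a term. By edgeR's test 0 of 86 members were called, against 0.0367% of all genes. The median was 0.16 among members and 0.17 over all genes. Of the members 65 were positive and 21 negative, where 45.3% of all genes were negative. An unadjusted p under 0.05 was found for 1 member, against 11.7% of all genes. That member was Rps27l (0.62 ± 0.26, edgeR adjusted p = 0.297). The next in that direction were Rpl22 (0.64 ± 0.39, adjusted p = 0.636) and Rps23 (0.39 ± 0.25, adjusted p = 0.708), and in the other Rps12 (-0.44 ± 0.39, adjusted p = 0.948), Rpl23 (-0.23 ± 0.22, adjusted p = 0.984) and Rpl10a (-0.24 ± 0.30, adjusted p = 1).

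Members with known disease or mouse phenotypes spanned the range. Rps7 (-0.86 ± 0.14, edgeR adjusted p = 0.00207), Rps26 (-0.74 ± 0.12, adjusted p = 0.00203) and Rps20 (-0.82 ± 0.16, adjusted p = 0.0107) were called in mutants, the first pair being Diamond-Blackfan genes and Rps20 and Rps19 genes of the mouse dark skin series. Rpl38, mutated in the Tail-short mouse, was at -0.53 ± 0.14 (adjusted p = 0.0747), and Rps6, the target of S6 kinases, at -0.39 ± 0.12 (adjusted p = 0.121). Rpl5 and Rpl11, which bind Mdm2 when ribosome assembly is disturbed, were at -0.53 ± 0.15 (adjusted p = 0.0983) and -0.51 ± 0.15 (adjusted p = 0.114). Rpl10, X-linked and placed late on the large subunit, was at -0.54 ± 0.17 (adjusted p = 0.127). None of these 5 was called in either genotype, and all were negative in both.

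Not every member followed. Rps27l, a paralogue of Rps27 known as a p53 target, had 626, 736, 692, 621 and 846 CPM in mutant axon and 688 to 1157 CPM (median 933) in mutant stalk libraries. Its axon libraries thus lay at the low end of the stalk range, with a log2 fold change of 0.23 ± 0.14 (edgeR adjusted p = 0.382). In controls the axon libraries held 694, 529, 921 and 837 CPM and the stalk libraries 452 to 899 CPM (median 603), with a log2 fold change of -0.40 ± 0.22 (adjusted p = 0.512). Divided by its parent Rps27 within each library, Rps27l was 0.853 ± 0.162 in dorsal, 0.749 ± 0.0956 in ventral and 0.348 ± 0.0858 in axon libraries of mutants (SD, n = 5). The mutant stalk ratios (0.626 to 1.08) did not overlap the mutant axon ratios (0.257 to 0.441). In controls the means were 0.494 ± 0.124, 0.575 ± 0.149 and 0.355 ± 0.106 (SD, n = 4), with overlapping ranges.

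Rpl7l1, a paralogue of Rpl7 that acts in ribosome assembly, varied widely, from 1.00 CPM in control dorsal replicate 3 to 554 CPM in control axon replicate 1. Its log2 fold change was -0.91 ± 0.72 (adjusted p = 0.794) in controls and 0.11 ± 0.43 (adjusted p = 1.00) in mutants by edgeR. Rpl22l1, a paralogue of Rpl22, was at -0.58 ± 0.37 and -0.23 ± 0.31 in controls and mutants, and Rpl22 at -0.97 ± 0.30 and -0.34 ± 0.26, with none called. Rpl36al (4.22 to 12.5 CPM) and Rps27rt (5.05 to 29.5 CPM) had standard errors of the log2 fold change over 1. The CPM of Rps27rt divided by that of Rps27 had group means of 0.00680 to 0.00914. Rps27rt, Rpl10-ps3 and Rpl9-ps6 are near copies of their parents, and the authors' counting could split reads between such copies and the parent.

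Per kilobase of mRNA and averaged over all libraries, the highest levels were those of Rps27 (4416 CPM per kb), Rps14 (3526) and Rpl41 (3514). The lowest were those of Rpl24 (2.48 CPM per kb), Rps10 (3.91) and Rpl13a (35.7). Rpl24 and Rps10 were near 0 in most libraries, with a median of 0.709 and 0.666 CPM and a maximum of 9.02 and 30.8 CPM. They share 47.0 and 28.7% of their exonic bases with other annotated genes (Gm28037 for Rpl24, Gm15420 and RPS10-NUDT3 for Rps10). Those genes were at a median of 0 CPM. Rpl24 is the gene mutated in the Belly spot and tail mouse. In mutants, Rpl24, Rps10 and Rpl13a were the other members with a positive value, none called. Rpl13a was at 0.33 ± 0.79. For Rpl24 and Rps10 no fold is given, as the counts are too low to show a direction, and the highest Rps10 level was that of mutant dorsal replicate 3 alone. Whether these counts reflect the level of the 3 genes was not tested.

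Members that encode shorter proteins tended to lie further toward the axon region. Across 75 members the Spearman correlation between coding length and the log2 fold change, stalk minus axon, was 0.54 in controls and 0.25 in mutants, and with mRNA length it was 0.25 and 0.13. Other genes above 100 CPM showed the same sign, with 0.24 in controls and 0.12 in mutants for coding length (2005 genes). Among mRNAs of at most 500 bases the control median was -0.96 for 13 members and -0.59 for 26 other genes, and the mutant medians were -0.72 and -0.41. From 1000 to 1500 bases the control medians were -0.65 for 14 members and -0.23 for 349 other genes, and the mutant medians -0.57 and -0.01. Members were thus below other genes of their length in each of the 5 classes, and the shortest class was the lowest for both sets of genes. Genes are not independent replicates, and the part of length in the difference was not tested.

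**Figure D4:**
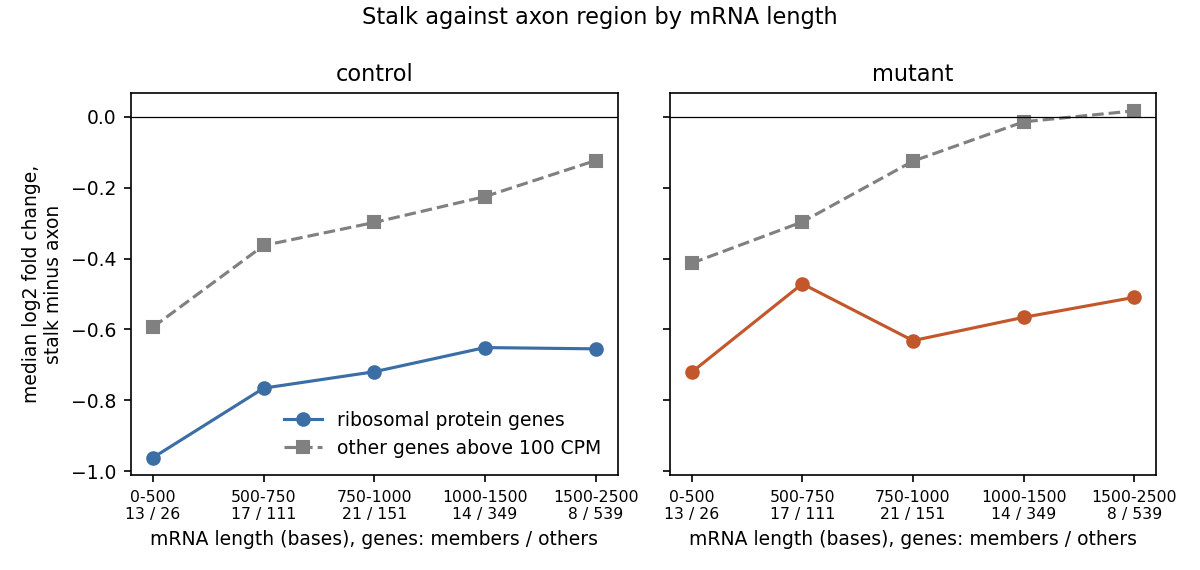
Median log2 fold change, stalk minus axon region, of members (circles) and of other genes above 100 CPM (grey squares) in 5 classes of mRNA length, for control and mutant embryos, with the number of genes under each class. In the shortest class the control medians are -0.96 for members and -0.59 for others, and members are lower in every class.

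A run of C and T anywhere in the window was found at similar rates in called and other members, which was not tested. It was in 13 of 25 called members with a window (52.0%) and in 23 of 37 members not called in mutants (62.2%). Rps12, with the most negative value, holds a run of 7 bases, and Rpl41, with the smallest p, holds none in the window printed above.

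Other mRNAs of the TOP class leaned the same way. Of 18 other TOP mRNAs tested (translation factors and a few others), 16 were negative in controls and 16 in mutants, with medians of -0.54 in both. Of these, 6 were called in mutants (1.24% of all genes were) and 0 in controls (0.117% of all genes were). In controls 10 had an unadjusted p under 0.05, against 11% of all genes. That count includes Eif4b, which was higher in the stalk (1.05 ± 0.44, edgeR unadjusted p = 0.0297). Those called included Eef1a1, which delivers aminoacyl-tRNA to the ribosome (-0.83 ± 0.08, edgeR adjusted p = 1.6e-05), Tpt1, a classic TOP mRNA (adjusted p = 0.000583), Pabpc1, the poly(A)-binding protein (-1.01 ± 0.22, adjusted p = 0.0194), and Fau, itself a ribosomal protein (-0.75 ± 0.15, adjusted p = 0.00902). Ribosome assembly factors differed less: of 24 genes, 0 in controls and 1 in mutants were called (Ncl, -0.88 ± 0.16, adjusted p = 0.00400), with medians of -0.05 and 0.19. Of 22 other initiation factors, 0 and 1 were called (Eif3a in mutants), with medians of -0.24 and -0.09. Of 76 mitochondrial ribosomal protein genes tested, 0 were called in either genotype, and the medians were -0.20 and -0.01. By edgeR, 6 in controls and 8 in mutants had an unadjusted p under 0.05, against 11 and 22.4% of all genes.

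Some other markers differed between the regions as well. All 8 protein-coding genes of the mitochondrial genome that were tested were negative in both genotypes (medians of -0.97 in controls and -0.96 in mutants). In mutants 7 of them were called (1.24% of all genes were). Erythroid markers summed to 609 to 33049 CPM in mutant axon libraries and to 2.27 to 7270 CPM in mutant stalk libraries. All 8 were negative in mutants with 0 called by edgeR and 7 at an unadjusted p under 0.05, against 22.4% of all genes. Mesenchyme markers summed to 629 to 2305 CPM in mutant axon and 53.1 to 395 CPM in mutant stalk libraries, and pigment markers to 170 to 1283 CPM and 656 to 12280 CPM. In controls the mesenchyme sums were 385 to 2638 CPM in axon and 55.2 to 11377 CPM in stalk libraries. Control erythroid sums were 2617 to 8983 CPM in axon and 275 to 24360 CPM in stalk libraries. Of these 8 markers 7 were negative in controls, with 0 called by edgeR and 2 at an unadjusted p under 0.05 (11% of all genes). Control pigment sums were 51.0 to 640 CPM in axon and 39.5 to 4912 CPM in stalk libraries. Endothelial markers went opposite ways, none called by edgeR. In controls 7 of 8 were higher in the stalk (median 1.77), with 0 at an unadjusted p under 0.05, against 11% of all genes. In mutants 8 of 8 were lower in the stalk (median -4.39), with 5 at an unadjusted p under 0.05, against 22.4% of all genes. Their sums were 3.55 to 194 CPM in control axon and 23.7 to 452 CPM in control stalk libraries, and 0.584 to 363 CPM in mutant axon and 9.23 to 420 CPM in mutant stalk libraries. Microglia markers summed to at most 171 CPM in any library. All 6 were lower in the stalk in controls (median -4.38), while in mutants 2 were lower and 4 higher (median 0.52), with 0 called in either. Of 12 stalk and astrocyte progenitor markers 2 were called in controls (0.117% of all genes were) and 3 in mutants (1.24% of all genes were), all higher in the axon region. The other way, 5 of the 12 were higher in the stalk in controls and 4 in mutants, with 0 called. The medians of the 12, stalk minus axon, were -0.20 and -0.58. The part of these RNAs in the difference of the members was not tested.

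Between dorsal and ventral stalk no member passed edgeR's test. In controls 0 of 86 members were called (0.00616% of all genes were) and 1, Rpl9-ps1, had an unadjusted p under 0.05 (7.48% of all genes). The median was -0.17 with 72 of 86 lower in the dorsal piece, against 48.4% of all genes. In mutants 0 were called (0.0246% of all genes were) and 2 had an unadjusted p under 0.05 (10.6% of all genes). The median was 0.06 with 27 lower in the dorsal piece, against 50.1% of all genes. In controls the members' share of counts was lower in the dorsal than in the ventral piece of the same embryo in 4 of 4 embryos, and in mutants in 2 of 5. With the replicate number as a block, which pairs the pieces of an embryo, 0 members were called by edgeR in either genotype and 4 had an unadjusted p under 0.05 in each, against 2.8% of all genes in controls and 3.53% in mutants. Members with the smallest p in the fit without the block among those lower in the dorsal control stalk, apart from Rpl9-ps1, were Rpl32 (-0.41 ± 0.22, adjusted p = 0.716) and Rpl11 (-0.48 ± 0.26, adjusted p = 0.739).

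Between mutant and control, no member passed edgeR's test in any piece. In the dorsal stalk, the median mutant minus control log2 fold change was 0.26 among members and -0.04 among all genes, with 0 members called (0.0124% of all genes were). Of the 86 members 69 were positive and 17 negative, where 51.4% of all genes were negative. By edgeR's test 1 member, Rps27l, had an unadjusted p under 0.05, against 5.35% of all genes. Without control dorsal replicate 3, the library that stood apart, 12 members did (4.7% of all genes), with a median of 0.34 and 0 called. The number was 9 by limma voom (8.34% of all genes) and 5 without the batch term (11% of all genes), with 0 called in both. Rps27l stood at 734, 452, 610 and 508 CPM in control and 688, 971, 846, 1157 and 1102 CPM in mutant dorsal libraries. The ranges overlapped through mutant 1, and the log2 fold change was 0.76 ± 0.23 (edgeR adjusted p = 0.918). Rpl32 (0.41 ± 0.19, adjusted p = 0.918) and Rps25 (0.54 ± 0.27, adjusted p = 0.918) came next. Ribosome assembly factors had a median of 0.53 in the same comparison, with 0 of 24 called and 4 at an unadjusted p under 0.05.

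In the ventral stalk the member median was -0.03, with 0 called by edgeR and 0 at an unadjusted p under 0.05. In all, 0% of genes were called there, and 3.19% had an unadjusted p under 0.05. Rps27l was at 0.32 ± 0.20 (edgeR adjusted p = 0.999) and Rpl3 at -0.44 ± 0.24 (adjusted p = 0.999). In the axon region the member median was -0.07, against -0.29 for all genes, with 0 called (again 0% of all genes) and 2 at an unadjusted p under 0.05, against 3.55% of all genes. These were Rpl7l1 (-0.99 ± 0.40) and Rpl36 (-0.49 ± 0.22), both with an edgeR adjusted p of 0.880. DESeq2 called 2 members (8.27% of all genes) and limma voom 1 (0.3% of all genes) in this comparison. An unadjusted p under 0.05 was found for 14 members by limma voom (6.92% of all genes) and for 9 by edgeR without mutant axon replicate 5 (3.19% of all genes).

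**Figure D5:**
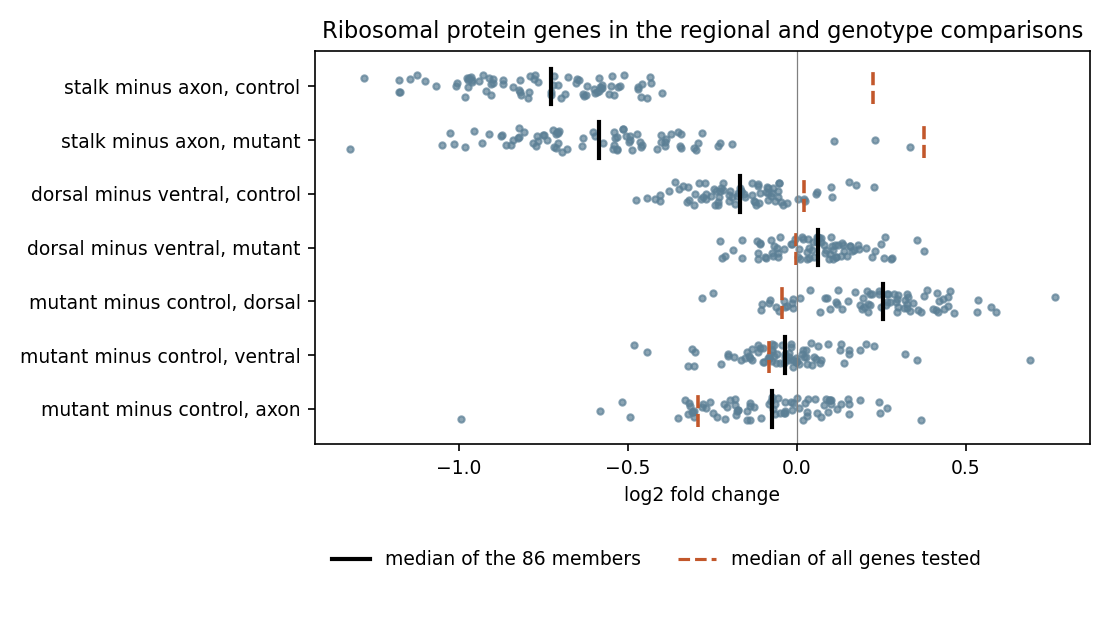
Log2 fold changes of the 78 members with a mean over 20 CPM (points) in 7 comparisons, with the median of all 86 members (black bar) and of all genes tested (dashed orange bar). Member medians are -0.73 and -0.58 in the stalk minus axon comparisons, -0.17 (control) and 0.06 (mutant) for dorsal minus ventral, and 0.26, -0.03 and -0.07 for mutant minus control in the dorsal, ventral and axon pieces.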

How the data were processed

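Laser-captured pieces of 9 embryos (27 libraries) were analysed. Per the authors' methods, sections were stained with cresyl violet, cDNA was amplified by PCR (Geo-seq), and libraries were read as single ends. The authors deposited raw counts per gene, made with Seq2Science at its default settings (STAR to mm10, then HTSeq), without scaling or filter. Tool versions, annotation release and strand setting are not given in the sources used here. Symbols and positions came from GENCODE M21 (55227 of 55487 identifiers matched). No pair of libraries held identical counts.

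Counts were compared with edgeR 4.0.16 (R 4.3.3; quasi-likelihood F-test, legacy, robust, TMM scaling) over genes that exceeded 10 counts in 3 or more of the 27 libraries, with Benjamini-Hochberg adjustment over all genes tested. Calls needed an adjusted p below 0.05 and a log2 fold change beyond 0.58 in either direction. Fits on part of the libraries left out genes without a count in them. Regions were compared within each genotype on all its libraries without covariates, genotypes within each region with batch as a term, and the difference between genotypes over all 27 libraries with batch. Standard errors are the fold change over the root of F and are approximate. CPM is the count over the library's total. Scripts were tested on simulated data. DESeq2 1.42.0 and limma 3.58.1 were alternatives, as were other scalings and filters, each library left out, and batches. Lengths are those of the RefSeq-linked GENCODE transcript with the longest coding part, and of the shortest such transcript in ties (82 of 86 members). Named members are the called ones of smallest p (at most 6 per direction), otherwise the 3 of smallest p, the P-stalk genes and Rpsa, paralogues with their parents, the extremes of level per kilobase, and members with known phenotypes. Single values of some genes are not reported here. The members, gene lists and tests were chosen with earlier results of these data known.

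Libraries of a genotype with the same number in their titles were taken to come from the same embryo. The correlation of their deviations from the group means over all genes tested ranged from -0.02 to 0.11 over 27 pairs and was above 0.1 in 2. Over the members alone it ranged from -0.21 (mutant 1, dorsal and axon) to 0.70 (mutant 3, dorsal and ventral). For the members, libraries of the same embryo are thus not shown to be independent, and the regional fits without the block did not model this.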

Additional observations from a re-analysis of the deposited data

Results flagged for a closer look

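In groups of 4 or 5 libraries, the members given per library and the summed share were checked for a library far from the rest of its group. Of 68 such groups 5 held one, where chance flags about 1 in 20. The summed share in mutant ventral libraries was 5.60% in replicate 2 against 4.46 to 4.62% in the others. In mutant dorsal libraries Rpl32 reached 949 CPM (next 762 CPM) in replicate 2, and Rpl7l1 reached 542 CPM (next 255 CPM) in replicate 3. Rps12 reached 266 CPM in control ventral replicate 3 (next 177 CPM) and 225 CPM in mutant ventral replicate 2 (next 170 CPM).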

How the results depend on the processing

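Under the alternatives run, the stalk minus axon median of the members stayed negative in both genotypes, while the number of members called changed. With 1 library left out, the mutant minus control median ranged from -0.21 to 0.12 in the axon region, from -0.09 to 0.06 in the ventral stalk and from 0.14 to 0.35 in the dorsal stalk. The median genotype difference ranged from -0.00 to 0.29 with 1 embryo left out, and that of dorsal minus ventral in mutants from 0.02 to 0.12 with 1 library left out. In controls, where 3 members were called (0.117% of all genes), the number was 18 by DESeq2 (5.37% of all genes). It was 27 with all 27 libraries in 1 model (0.386%), 11 without a filter on low counts (0.113%) and 8 by the newer edgeR method (0.296%). It was 1 each with RLE size factors (0.0986%), total count scaling (0.105%) or limma voom (0.222%), and 0 within batch B (0.0621%). With the replicate number as a block, which pairs the libraries of an embryo, it was 15 (0.253%). When the batch A embryo was also left out, it was 1 (0.0807%). Leaving out 1 control library gave 0 to 5 calls: 0 without axon replicate 1, 1 without axon 3, dorsal 2, dorsal 4, ventral 1 or ventral 4, and 5 without dorsal 3 or ventral 3. These fits called 0.0802 to 0.154% of all genes, and the member median ranged from -0.85 to -0.55.

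In mutants, where 32 were called (1.24% of all genes), the number was 38 by DESeq2 (13.4% of all genes) and 34 by limma voom (7.73%). It was 21 without a filter (0.553%), 19 with total count scaling (1.11%, median -0.42), 5 within batch A (0.267%) and 0 within batch B (0.0129%). The blocked fit called 31 (0.838%), and the replicate block within batch A gave 1 (0.108%) and within batch B 0 (0%). Leaving out 1 mutant library gave 25 to 38 calls (0.964 to 1.65% of all genes) and medians of -0.69 to -0.55. The scalings moved the median of all genes from 0.22 (TMM) to 0.31 (RLE) and 0.41 (total count) in controls and from 0.38 to 0.43 and 0.54 in mutants, with 84 and 81 members negative under each.

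The dorsal minus ventral median in controls was -0.31 without dorsal replicate 3 and -0.055 without ventral replicate 3, the ends of its range, and in mutants it was 0.16 within batch B. In the axon region between genotypes, DESeq2 called 2 members (8.27% of all genes) and limma voom 1 (0.3% of all genes). Without mitochondrial genes the members' share in mutant axon libraries was 7.404%. Fits with the block changed no other call. The batch fits with the block and batch A alone were chosen after seeing the data. The cause of these changes was not tested. In the main fit, members under about 20 CPM had standard errors too wide to show differences of the size seen in the others. In mutants, Rpl9-ps6 and Rps27rt (lower in the stalk) and Rps10 (higher in the stalk) were each called under 1 of 29 alternatives.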
